A study of Mus musculus with 12 samples.

Results

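The 10 genes described here are *Mt1*, *Mt2*, *Hmox1*, *Nqo1*, *Gclc*, *Gclm*, *Txnrd1*, *Srxn1*, *Slc7a11* and *Nfe2l2*, chosen by name from the 55401 genes of the raw count table. All 10 were among the 25771 genes with enough reads to be tested. RNA was sequenced from Pax7-ZsGreen+ satellite cells, the stem cells of skeletal muscle, sorted from the hind limbs of mice. *Cxcr4* WT mice carried CXCR4 FL/FL and Pax7-ZsGreen alleles without cre, and *Cxcr4* KO mice carried the same alleles with Pax7-creERT2, a cre recombinase that tamoxifen switches on in *Pax7*-expressing cells. By the sample labels, mice of both genotypes received tamoxifen at 80 mg/kg on 5 days. Libraries of freshly sorted cells (4 WT, 4 KO) are called quiescent, and libraries of cells kept overnight in culture (2 WT, 2 KO) are called activated. WT mice had no cre, so that an effect of creERT2 with tamoxifen cannot be told apart from that of *Cxcr4* loss. By the study's methods the mice were adults of 3 to 4 months. The sources used here do not say whether libraries came from separate animals, so p-values measure the spread between these libraries.

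Cells keep hydrogen peroxide and reactive aldehydes low with glutathione, thioredoxin and NADPH-dependent reductases. The transcription factor NRF2, the product of *Nfe2l2*, is held back by KEAP1 and, once released, binds antioxidant response elements with small MAF partners, while BACH1 competes for such sites. *Nqo1*, *Gclc*, *Gclm*, *Txnrd1*, *Srxn1*, *Slc7a11* and *Hmox1* are classical NRF2 targets. *Mt1* and *Mt2* encode metallothioneins, small cysteine-rich proteins that bind zinc and copper, and are driven by the zinc sensor MTF1 through metal response elements. Satellite cells leave quiescence for activation and division after injury or when cultured, and are known to raise their metabolism as they do.

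The promoters of the 5 genes that passed the state test in both genotypes are shown first, because the metallothioneins fell and the other 3 genes rose. They are the 250 bases before the RefSeq start on GRCm38.p6, 5′ to 3′ on the gene's strand. Of the 10 genes, 8 had an entry in the RefSeq promoter table. Capitals mark a metal response element core (TGCACNC or TGCGCNC) in the metallothionein promoters and an antioxidant response element core (TGACNNNGC) in the others, on either strand. The windows are chr8:94178839-94179088 on the plus strand for *Mt1*, chr8:94172368-94172617 on the plus strand for *Mt2*, chr3:50443614-50443863 on the minus strand for *Slc7a11*, chr8:107403206-107403455 on the minus strand for *Nqo1* and chr3:122245307-122245556 on the plus strand for *Gclm*.
Mt1: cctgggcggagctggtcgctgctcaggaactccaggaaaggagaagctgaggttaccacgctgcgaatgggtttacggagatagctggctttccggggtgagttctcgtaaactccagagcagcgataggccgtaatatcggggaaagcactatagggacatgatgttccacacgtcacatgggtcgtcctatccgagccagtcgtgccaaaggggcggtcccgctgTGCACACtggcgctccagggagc
Mt2: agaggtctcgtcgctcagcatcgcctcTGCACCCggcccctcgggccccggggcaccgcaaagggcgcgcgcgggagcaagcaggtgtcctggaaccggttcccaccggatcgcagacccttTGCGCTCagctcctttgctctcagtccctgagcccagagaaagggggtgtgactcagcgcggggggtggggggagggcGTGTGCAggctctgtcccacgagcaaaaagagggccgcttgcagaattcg
Slc7a11: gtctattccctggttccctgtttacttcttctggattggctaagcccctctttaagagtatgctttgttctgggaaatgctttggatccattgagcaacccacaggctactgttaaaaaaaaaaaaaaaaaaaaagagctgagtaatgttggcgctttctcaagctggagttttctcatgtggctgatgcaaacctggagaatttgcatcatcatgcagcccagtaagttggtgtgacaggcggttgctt
Nqo1: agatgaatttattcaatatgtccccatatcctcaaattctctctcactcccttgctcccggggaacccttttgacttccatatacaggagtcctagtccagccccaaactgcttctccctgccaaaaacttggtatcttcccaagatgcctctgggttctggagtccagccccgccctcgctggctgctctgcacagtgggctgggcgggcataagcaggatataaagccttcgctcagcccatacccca
Gclm: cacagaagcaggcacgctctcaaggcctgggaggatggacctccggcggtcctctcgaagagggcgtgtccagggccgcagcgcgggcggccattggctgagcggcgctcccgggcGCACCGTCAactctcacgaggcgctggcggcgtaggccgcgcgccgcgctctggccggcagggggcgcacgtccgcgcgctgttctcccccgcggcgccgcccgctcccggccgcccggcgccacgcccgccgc

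The *Mt2* window held 3 metal response element cores, a number reached by 1.26% of 32851 RefSeq promoter windows of this length, and the *Mt1* window held 1, which 21.4% reached. GENCODE release 21 places other *Mt1* transcript starts 122 and 152 bases further downstream. Its *Mt2* transcript starts lie 46 and 242 bases downstream of the RefSeq start. The sequence just before the starts of either gene in that release was not searched, so these windows cannot decide whether the promoters differ in cores. The *Mt2* window also held TGACTCAGC, in which an antioxidant response element core overlaps an AP-1 site (TGACTCA), and this string was present in 0.39% of windows. The *Gclm* window held 1 antioxidant response element core, found in 10.2% of windows. It also held 2 metal response element cores, a number reached by 5.17% of windows and not marked in capitals. The *Slc7a11* and *Nqo1* windows held no core of either kind, which says only that these letters are not in the 250 bases shown. *Srxn1* (chromosome 2) had 2 AP-1 sites, 1 metal response element core and no antioxidant response element core in its window. The AP-1 letters were present in 4.46% of windows. *Nfe2l2* had 1 antioxidant response element core, and *Txnrd1* had 1 in the window of 1 of its 3 RefSeq starts.

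The genes lie on 5 chromosomes of GRCm38. *Mt2* (ENSMUSG00000031762; chromosome 8, 94172664 to 94173568) and *Mt1* (ENSMUSG00000031765; chromosome 8, 94179082 to 94180327) are neighbours with 5513 bases between them. *Hmox1* (ENSMUSG00000005413) and *Nqo1* (ENSMUSG00000003849) are on the same chromosome, from 75093621 to 75100589 and from 107388225 to 107403206. *Srxn1* (ENSMUSG00000032802; 152105516 to 152111376) and *Nfe2l2* (ENSMUSG00000015839; 75675513 to 75704641) are on chromosome 2, and *Gclm* (ENSMUSG00000028124; 122245557 to 122270732) and *Slc7a11* (ENSMUSG00000027737; 49892526 to 50443614) are on chromosome 3. *Gclc* (ENSMUSG00000032350) is on chromosome 9 from 77754535 to 77794485, and *Txnrd1* (ENSMUSG00000020250) is on chromosome 10 from 82833951 to 82897712. Of the 10 genes, 7 shared no stretch of 100 bases or more at 90% identity with another gene's transcripts. *Mt2* shares 212 identical bases with *Gm45774*, whose counts came to 8.67% of its own. Stretches of the *Slc7a11* gene model match 36 other genes, among them the tubulin gene *Tuba1b* at 92.5% over 585 bases. Counts of *Tuba1b*, *Tuba1a* and *Tuba1c* came to 402%, 730% and 530% of those of *Slc7a11*. Stretches of *Gclm* exons match 180 other genes, among them *Ppia* at 97.9% over 287 bases. Reads from these stretches could be counted on either gene.

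Between 12775593 and 23717013 reads per quiescent library and between 3172164 and 5427280 reads per activated library were counted on genes. Values are CPM, the usual unit of counts relative to library size, with library sizes corrected by the TMM factors of edgeR. A gene is called changed at an adjusted p-value under 0.05 (edgeR's quasi-likelihood test, Benjamini-Hochberg adjustment over all tested genes), a log2 fold change beyond 1 and a mean normalized count over 10. Among satellite cell markers *Pax7* was present in every library. It was at 303 to 482 CPM in the quiescent WT and 181 to 290 CPM in the quiescent KO libraries, a difference that was not called. The activated libraries held 71.2 to 129 CPM. *Cxcr4*, the floxed gene, ranged from 59.1 to 112 CPM over the quiescent WT libraries and from 12.5 to 21.2 CPM over the quiescent KO libraries (log2 fold change -2.24, standard error 0.31, adjusted p = 0.00477, edgeR). The activated WT libraries held 33.3 and 14.4 CPM and the activated KO libraries 5.39 and 13.7 CPM of it, and this difference was not called. The states differed in more than culture. *Xist* was at 1.20 to 7.17 CPM in the quiescent and 451 to 817 CPM in the activated libraries, and Y chromosome genes summed to 431 to 715 CPM and 0.438 to 6.04 CPM, so that state, sex and depth cannot be told apart. The ribosomal RNA gene CT010467.1 took under 1% of counts in quiescent libraries and 12.6%, 40.3%, 11.5% and 28.8% in WT activated replicates 1 and 2 and KO activated replicates 1 and 2.

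**Figure D1:**
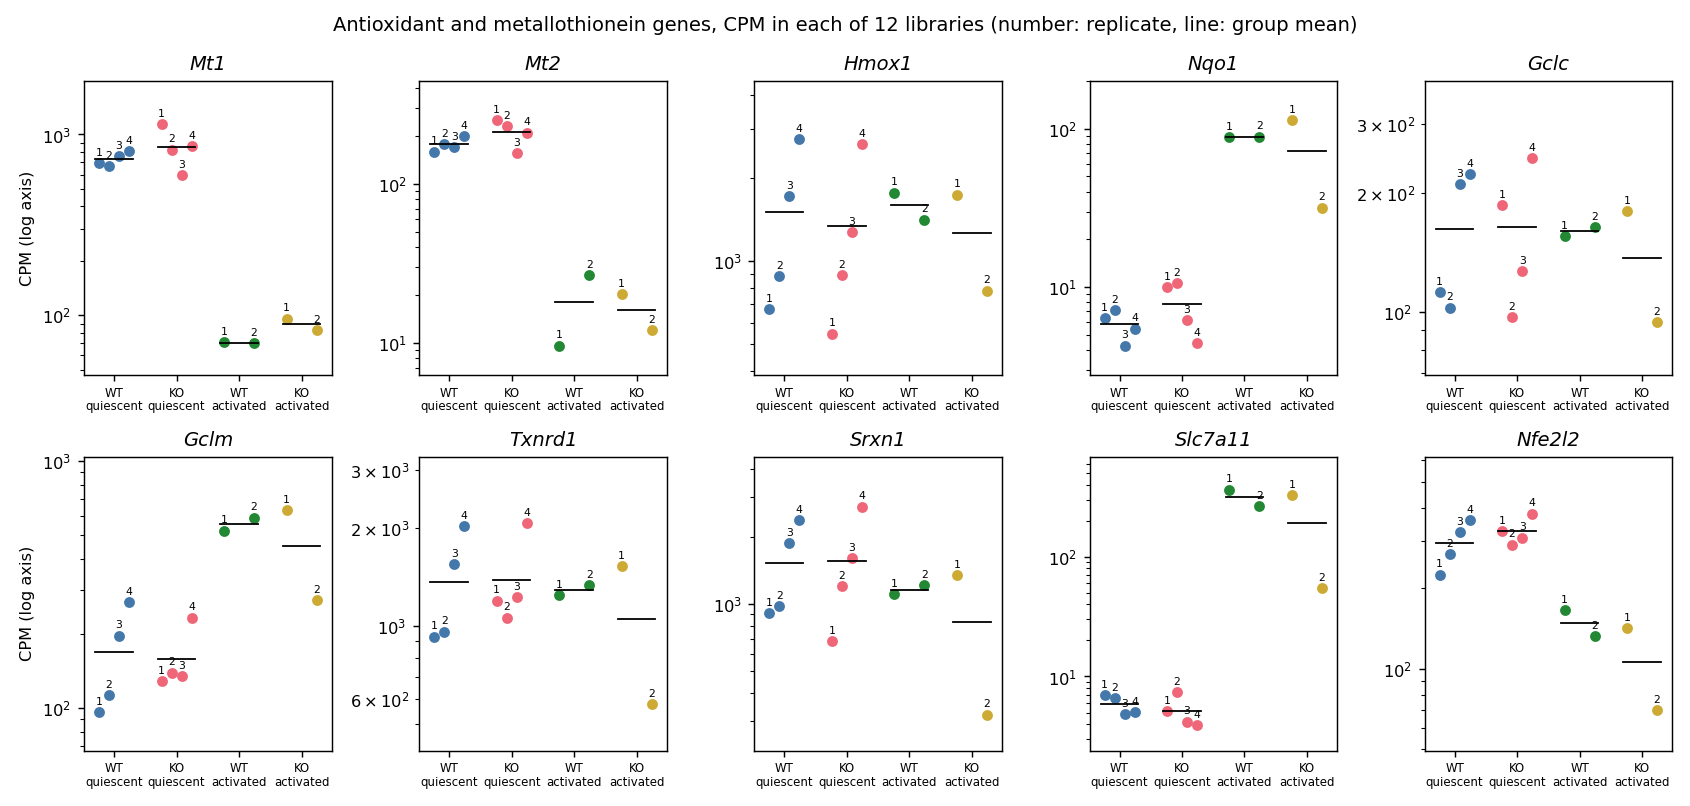
CPM of each gene on a log axis in each of the 12 libraries, by group. Points are libraries, numbers are replicates and lines are group means. *Mt1* and *Mt2* lie lower and *Nqo1*, *Gclm* and *Slc7a11* higher in every activated library than in any quiescent library, and KO activated replicate 2 is the lowest activated library for 8 genes.

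Per length of merged exons, *Hmox1*, which encodes the inducible enzyme that opens heme to biliverdin, iron and carbon monoxide, had the highest mean level of the 10 genes in each group. In quiescent WT libraries it stood at 862 ± 543 CPM per kb (SD, n = 4), followed by *Mt1* at 587 ± 50.5, *Srxn1* at 543 ± 252, *Mt2* at 301 ± 28.1 and *Txnrd1* at 192 ± 73.5 CPM per kb. The ranges of these neighbours overlapped at each step. *Nfe2l2* (77.5 ± 15.6), *Gclc* (43.2 ± 17.0) and *Gclm* (26.8 ± 12.7 CPM per kb) came next, below the range of *Txnrd1*, with *Gclc* overlapping both of the others and no overlap between *Nfe2l2* and *Gclm*, and *Nqo1* (3.73 ± 0.802) and *Slc7a11* (0.422 ± 0.0781 CPM per kb) lay below them without overlap. The order in quiescent KO libraries was the same. In activated WT libraries the order was *Hmox1*, *Srxn1*, *Txnrd1*, *Gclm*, *Nqo1*, *Mt1*, *Gclc*, *Nfe2l2*, *Mt2*, *Slc7a11*, in which *Mt1* had moved from the second to the sixth place, and the order in activated KO libraries differed from it by the exchange of *Nqo1* and *Mt1*. The authors' FPKM, deposited as 1 value per group with no SD or n, gave the same order in all 4 groups, with 570 for *Mt1* and 0.410 for *Slc7a11* in quiescent WT cells and 58.0 and 23.0 in activated WT cells.

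Both metallothionein mRNAs fell in cultured cells of both genotypes. *Mt1* was at 692, 670, 758 and 808 CPM in the WT quiescent replicates 1 to 4 and 1144, 824, 595 and 864 CPM in their KO counterparts, against 71.4 and 70.1 CPM in the WT activated replicates 1 and 2 and 95.8 and 82.6 CPM in the KO ones. No activated library reached the lowest quiescent one. *Mt1* fell by 3.37 on the log2 scale in WT (standard error 0.31, adjusted p = 2.26e-07, edgeR) and by 3.26 in KO (standard error 0.31, adjusted p = 2.37e-07, edgeR), that is 10.3-fold and 9.61-fold lower. *Mt2* was at 160, 179, 171 and 199 CPM in the WT quiescent libraries and 251, 231, 156 and 210 CPM in their KO counterparts, and at 9.64 and 26.7 CPM in the WT activated libraries and 20.3 and 12.1 CPM in the KO ones. On the log2 scale it fell by 3.35 in WT (standard error 0.39) and it fell by 3.72 in KO (standard error 0.39), with adjusted p of 2.54e-06 and 7.80e-07 from edgeR's test. Its size in WT rested on which library was used, since *Mt2* fell by 2.65 without WT activated replicate 1 and by 4.14 without WT activated replicate 2. The KO change minus the WT change was 0.11 (95% interval -0.67 to 0.89) for *Mt1* and -0.37 (95% interval -1.36 to 0.63) for *Mt2*. Together these genes made up 11.2% to 31.2% of the summed CPM of the 10 genes in quiescent libraries and 1.47% to 4.12% in activated ones.

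Within a library, counts of *Mt1* and *Mt2* kept to a narrow ratio in quiescent cells, 3.56 to 4.55 *Mt1* counts per *Mt2* count over 8 libraries. In the 4 activated libraries the ratio ran from 2.62 to 7.41, with only 53 to 79 *Mt2* counts behind each value. Over the 8 quiescent libraries the deviations of log2 CPM from the group means had a Pearson r of 0.89 between *Mt1* and *Mt2*. This is a description of 8 points that share library depth and handling, and over all 12 libraries r was 0.45. *Mtf1*, the zinc-responsive activator of both genes, did not pass the fold limit, with log2 fold changes in activated cells of 0.89 (standard error 0.26, adjusted p = 0.0156, edgeR) in WT and 0.99 (standard error 0.26, adjusted p = 0.00662, edgeR) in KO. Of 10 tested genes of a list of other metallothioneins and metal handling proteins, none was called higher in activated cells, 2 were called lower in WT and 3 in KO. The copper pump *Atp7a* fell by 2.49 (standard error 0.38) and 2.33 (standard error 0.37) on the log2 scale in WT and KO, and the zinc and iron importer *Slc39a14* by 2.21 and 1.44. *Mt3* was called lower in KO alone, where 1 count was left in each activated library, while in WT it had 19 and 4 counts in the activated libraries.

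**Figure D2:**
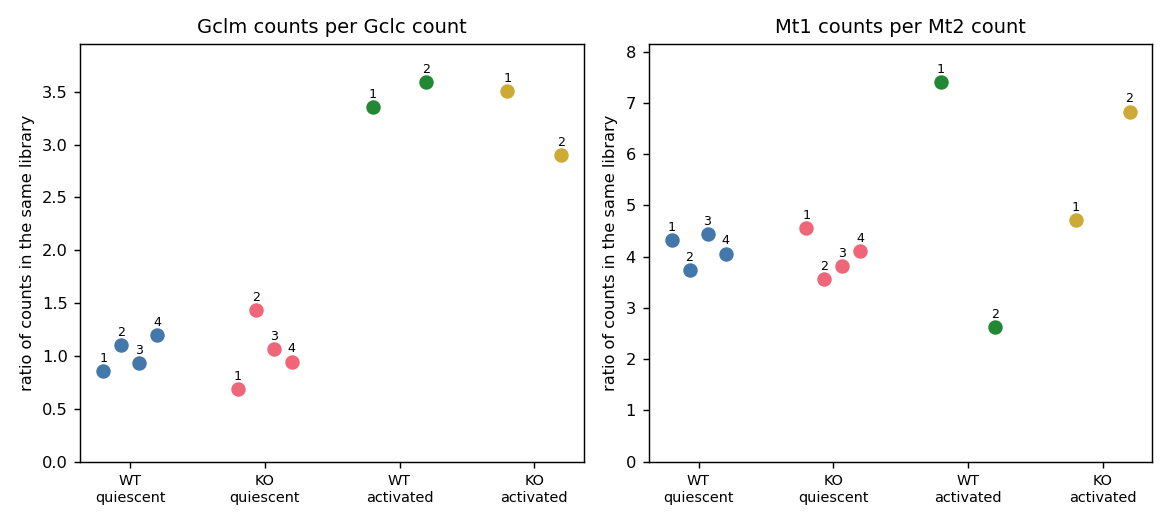
Ratio of raw counts of 2 genes within the same library, by group, with points for libraries and numbers for replicates. *Gclm* counts per *Gclc* count lie at 0.687 to 1.44 in quiescent and 2.90 to 3.59 in activated libraries, and *Mt1* counts per *Mt2* count spread from 2.62 to 7.41 in activated libraries.

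*Slc7a11* had the largest rise of the 10 genes. It encodes the light chain of the cystine and glutamate exchanger that feeds glutathione synthesis. The gene was low in quiescent cells, at 6.996, 6.60, 4.82 and 5.06 CPM in the WT libraries and 5.16, 7.45, 4.20 and 3.92 CPM in the KO ones (83 to 134 reads per library). It reached 364 and 266 CPM in the WT activated libraries and 327 and 54.8 CPM in the KO ones. Every activated library was far above every quiescent library, but KO activated replicate 2 was the lowest of the 4 by a wide margin. The log2 fold change was 5.75 in WT (standard error 0.46, adjusted p = 4.41e-08, edgeR) and 5.21 in KO (standard error 0.45, adjusted p = 8.05e-08, edgeR), that is 53.8-fold and 37.0-fold. In KO it was 3.41 without KO activated replicate 1 and 6.002 without KO activated replicate 2. The part in these counts of reads from tubulin and other genes that match the *Slc7a11* gene model was not tested.

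The enzyme that joins glutamate and cysteine, glutamate cysteine ligase, has a catalytic subunit from *Gclc* and a modifier subunit from *Gclm*, and the modifier alone was called. *Gclm* was at 96.2, 113, 197 and 269 CPM in the WT quiescent libraries and 128, 139, 135 and 232 CPM in their KO counterparts, and at 522 and 590 CPM in the WT activated libraries and 632 and 273 CPM in the KO ones. KO activated replicate 2 was close to the highest quiescent library. The log2 fold change was 1.72 in WT (standard error 0.37, adjusted p = 0.00146, edgeR) and 1.51 in KO (standard error 0.37, adjusted p = 0.00383, edgeR). The call in KO was lost without KO activated replicate 1, with 0.78 and adjusted p = 0.257 in edgeR's test. *Gclc* was at 112, 102, 212 and 224 CPM in the WT quiescent libraries and 187, 96.7, 127 and 245 CPM in their KO counterparts, and at 156 and 164 CPM in the WT activated libraries and 180 and 94.2 CPM in the KO ones. The states overlapped. Its log2 fold changes were -0.02 in WT (95% interval -0.81 to 0.76) and -0.26 in KO (95% interval -1.05 to 0.54), and the WT value changed sign under several settings. Counts of *Gclm* per *Gclc* count were 0.687 to 1.44 in the 8 quiescent and 2.90 to 3.59 in the 4 activated libraries. The ratio in KO activated replicate 2, 2.90, stayed with the activated libraries although both genes were low there.

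*Nqo1*, which encodes a quinone reductase that uses NADH or NADPH, rose from 6.32, 7.17, 4.25 and 5.44 CPM in the WT quiescent libraries and 10.0, 10.5, 6.15 and 4.39 CPM in their KO counterparts (93 to 192 reads) to 88.7 and 89.3 CPM in the WT activated libraries and 113.5 and 31.7 CPM in the KO ones. Every activated library was above every quiescent library. The log2 fold change was 3.94 in WT (standard error 0.40, adjusted p = 5.64e-07, edgeR) and 3.23 in KO (standard error 0.39, adjusted p = 3.65e-06, edgeR). In KO it was 2.04 without KO activated replicate 1 and 3.89 without KO activated replicate 2.

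*Hmox1*, *Txnrd1* and *Srxn1* were abundant in both states and did not pass the test in either genotype. *Hmox1* was at 669, 883, 1725 and 2760 CPM in the WT quiescent replicates 1 to 4 and 547, 890, 1274 and 2650 CPM in their KO counterparts, a 5.05-fold span, and at 1770 and 1414 CPM in the WT activated libraries and 1743 and 783 CPM in the KO ones. The activated values fell inside the quiescent range, with log2 fold changes of 0.08 in WT (95% interval -1.03 to 1.19) and -0.09 in KO (95% interval -1.20 to 1.03). *Txnrd1*, the cytosolic thioredoxin reductase, was at 928, 961, 1548 and 2017 CPM in the WT quiescent libraries and 1196, 1060, 1228 and 2060 CPM in their KO counterparts, and at 1246 and 1335 CPM in the WT activated libraries and 1524 and 576 CPM in the KO ones. Its log2 fold changes were -0.08 (95% interval -0.88 to 0.72) in WT and -0.40 (95% interval -1.21 to 0.41) in KO. *Srxn1*, the sulfiredoxin that repairs overoxidized peroxiredoxins, was at 912, 974, 1862 and 2372 CPM in the WT quiescent libraries and 682, 1200, 1602 and 2723 CPM in their KO counterparts, and at 1109 and 1209 CPM in the WT activated libraries and 1343 and 320 CPM in the KO ones. Its log2 fold changes were -0.40 (95% interval -1.48 to 0.68) in WT and -0.90 (95% interval -2.01 to 0.21) in KO, and without KO activated replicate 1 the KO value was -2.29 with adjusted p = 0.0143 in edgeR's test, which met the rule for a call. KO activated replicate 2 lay below every quiescent library for *Txnrd1* and *Srxn1*, and the other 3 activated libraries lay inside the quiescent range. The intervals of these 3 genes, and those of *Gclc*, leave room for changes of 1.5-fold or more in 1 direction at least.

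*Nfe2l2* itself was lower in activated cells, while several of its targets were higher. It was at 225, 269, 324 and 359 CPM in the WT quiescent libraries and 326, 291, 309 and 380 CPM in their KO counterparts, and at 166 and 132 CPM in the WT activated libraries and 142 and 70.0 CPM in the KO ones. All activated libraries lay below all quiescent ones. In KO it fell by 1.63 on the log2 scale (standard error 0.31, adjusted p = 3.93e-04, edgeR). Its change in WT was -0.98 on that scale (standard error 0.30, adjusted p = 0.0170, edgeR), short of the fold limit, and -1.08 without WT quiescent replicate 1, which passed. In KO the change was -2.22 without KO activated replicate 1 and -1.19 without KO activated replicate 2. The difference between these genotypes' changes was -0.65 (standard error 0.40, adjusted p = 0.859, edgeR) and was not called.

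Of the 10 genes, 5 were called in WT (3 higher, 2 lower) and 6 in KO (3 higher, 3 lower), against 26.2% and 29.6% of all tested genes. By direction, 9.65% of all genes were called higher and 16.5% lower in WT, and 11.1% and 18.5% in KO. The median log2 fold change over the 10 genes was -0.05 in WT and -0.33 in KO, and over all tested genes -0.92 and -0.96. The all-gene medians depended on the filter on low counts. Over the 18738 genes that averaged 10 counts or more they were -0.46 in WT and -0.49 in KO. The medians of the 10 genes were then 0.04 and -0.24. Of those 18738 genes, 2665 were called higher and 4174 lower in WT, and 3013 and 4650 in KO. Of the 10 genes, 3 were higher and 3 lower without overlap between states in each genotype, where 17.6% and 38.4% of all genes were so in WT and 18.3% and 36.1% in KO. In bulk samples fewer cells of a type and less RNA per cell cannot be told apart. All 10 mature muscle fibre markers were called higher in activated cells of both genotypes, with a summed level of 6747 to 16802 CPM against 282 to 945 CPM, and the 12 dissociation and early response genes, 11 of them called lower in WT and 12 in KO, summed to 1918 to 6613 CPM against 29546 to 47868 CPM. Satellite cell markers, 13 genes, summed to 2440 to 3613 CPM in activated and 5407 to 8738 CPM in quiescent libraries, with *Calcr* at 0 in KO activated replicate 1. Endothelial markers (8 genes) summed to 130 to 795 CPM in activated and 320 to 1650 CPM in quiescent libraries, so that the states overlapped. Fibroadipogenic (8 genes, 249 to 463 against 770 to 2336 CPM), blood cell (9 genes, 36.9 to 83.5 against 90.6 to 477 CPM) and smooth muscle and pericyte markers (7 genes, 935 to 1326 against 1812 to 2857 CPM) had lower sums in every activated library. *Cd52*, *Adgre1* or *Tagln* was at 0 in 3 activated libraries. Within the fibroadipogenic list *Ly6a*, *Col3a1*, *Dpt* and *Gsn* were called lower in both genotypes, and *Pdgfra* was called higher in KO (log2 fold change 2.04, standard error 0.44, adjusted p = 0.00125, edgeR). The mean CPM of *Pdgfra*, *Dcn* and *Lum* was higher in activated than in quiescent libraries of both genotypes. The part of all these marker sets in the results was not tested.

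**Figure D3:**
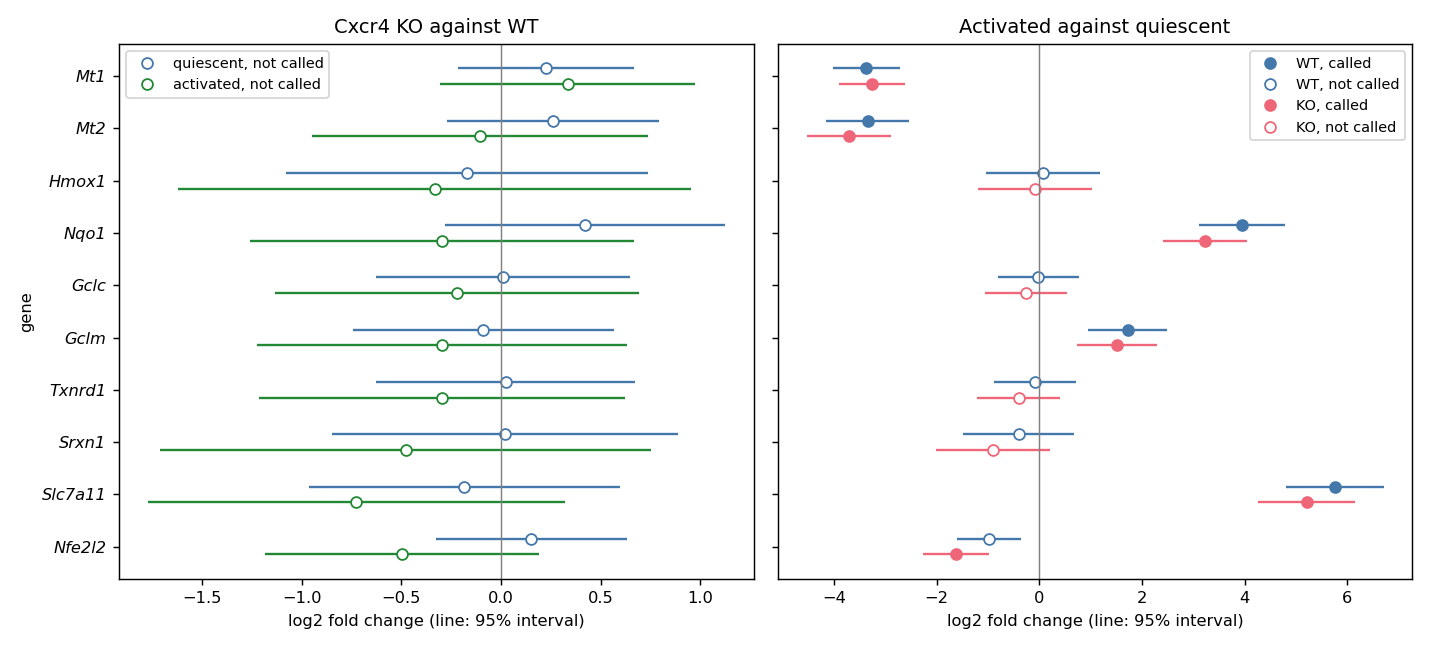
Log2 fold changes of the 10 genes with 95% intervals from edgeR's quasi-likelihood fit. Left, *Cxcr4* KO against WT in quiescent and activated libraries, where every interval covers 0. Right, activated against quiescent in WT and KO, where filled points mark the genes called, 5 in WT and 6 in KO.

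KO was compared with WT in quiescent cells to ask whether these genes differ before activation when *Cxcr4* RNA is low. The paper reports that, right after the tamoxifen doses, CXCR4 protein on satellite cells had dropped less than its mRNA. These cells may therefore still have carried some receptor. None of the 10 genes was called, at adjusted p = 1 for each in edgeR's test, and none had an unadjusted p under 0.05. Over all genes 0.0155% were called, 4 of 25771. The log2 fold changes of KO against WT lay between -0.19 for *Slc7a11* (95% interval -0.97 to 0.60) and 0.42 for *Nqo1* (95% interval -0.28 to 1.12). *Mt1* averaged 732 ± 62.9 CPM over the WT libraries and 857 ± 225 CPM over the KO libraries (SD, n = 4 each). Its fold change was 0.23 on the log2 scale (95% interval -0.22 to 0.67). *Mt2* averaged 177 ± 16.5 and 212 ± 41.1 CPM (SD, n = 4 each), which differed by 0.26 on that scale (95% interval -0.27 to 0.79). The KO libraries spread from 595 to 1144 CPM for *Mt1*, with the highest value in replicate 1 and the lowest in replicate 3, and took in the whole range of WT. The mean of *Nfe2l2* was 294 ± 59.2 CPM over the WT libraries and 327 ± 38.1 CPM over the KO libraries (SD, n = 4 each), and all 10 genes overlapped between the genotypes. The intervals of *Hmox1* (-1.08 to 0.74) and *Nqo1* took in a 2-fold difference, a log2 fold change of 1, and that of *Mt1* did not. No cell type marker was called between genotypes. All 9 blood cell markers were higher in KO, 4 of them at an unadjusted p under 0.05 in edgeR's test. Of the 12 dissociation and early response genes, 11 were lower. The part of these differences was not tested.

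In activated cells, 9 of the 10 genes had a lower mean in KO and none was called. The log2 fold changes ran from -0.73 for *Slc7a11* (standard error 0.50, adjusted p = 0.764, edgeR) through -0.50 for *Nfe2l2* (standard error 0.33, adjusted p = 0.747, edgeR) and -0.48 for *Srxn1* (standard error 0.59) to 0.33 for *Mt1* (standard error 0.31, adjusted p = 0.880, edgeR). None had an unadjusted p under 0.05, and 0.0504% of all genes were called, 13 of 25771. *Mt1* was the only gene of the 10 whose WT and KO libraries did not overlap, both KO values being higher. With 2 libraries a group, 24.7% of all tested genes did not overlap, and 15.2% were higher in KO. The median over the 10 genes was -0.30, and over all tested genes 0.00. No cell type marker was called. All 12 dissociation and early response genes were lower in KO, 8 of them at an unadjusted p under 0.05 in edgeR's test. All 10 muscle fibre and all 8 fibroadipogenic markers were higher in KO, none at that limit. The part of these differences was not tested. The KO effect in activated cells minus that in quiescent cells was not called for any of the 10 genes or for any other gene in edgeR's test, that is 0% of tested genes, and at an unadjusted p under 0.05 it counted none of the 10 and 1699 of all genes. With DESeq2 48 genes were called, none of them among the 10.

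Most of the lower KO means rested on 1 library. KO activated replicate 2 was the lowest of the 4 activated libraries for 8 of the 10 genes, all but the metallothioneins, whereas KO activated replicate 1 was the lowest for none. Of all tested genes, 14.5% were lowest in KO activated replicate 2, and of the 4635 abundant genes (mean log2 of CPM plus 1 over 5) 30.6%. For *Slc7a11*, *Srxn1*, *Nqo1* and *Txnrd1* the library held less than 0.5 times the level of the next lowest activated library, the next lowest being 4.86-fold, 3.47-fold, 2.80-fold and 2.16-fold higher. This was so for 2.69% of all tested genes and 0.949% of the abundant ones. *Slc7a11* and *Nqo1* fell below the limit for abundant genes, so that the share of abundant genes is no measure for them. The 10 genes summed to 2297 CPM in that library and to 5296 to 6121 CPM in the other 3. Without it the median log2 fold change of KO against WT was 0.14 and 8 of the 10 genes were above 0. Without KO activated replicate 1 the median was -1.07, and *Slc7a11* was called at -2.54 (standard error 0.45, adjusted p = 0.0110, edgeR). In KO activated replicate 2 CT010467.1 took 28.8% of counts, muscle fibre markers summed to 16802 CPM (6747 to 15243 CPM in the other 3), and blood cell markers to 83.5 CPM (36.9 to 57.8 CPM). Fibroadipogenic markers were also highest there (463 CPM against 249 to 325 CPM), and satellite cell markers lowest (2440 CPM against 2609 to 3613 CPM). Smooth muscle and pericyte markers summed to 1326 CPM (935 to 1076 CPM in the other 3), of which *Des* made up 1068 CPM. The other genes of that list were all higher in WT activated replicate 1 than in KO activated replicate 2. The total of KO activated replicate 2, 5019788 counts, was the second highest of the 4. *Cxcr4* was at 13.7 CPM in it, against 5.39 CPM in KO activated replicate 1 and 33.3 and 14.4 CPM in WT activated replicates 1 and 2. WT activated replicate 2 had 40.3% of counts on CT010467.1 and 15243 CPM of fibre markers, and it was the lowest activated library for *Mt1* alone of the 10 genes. The part of these features in the low values was not tested.

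**Figure D4:**
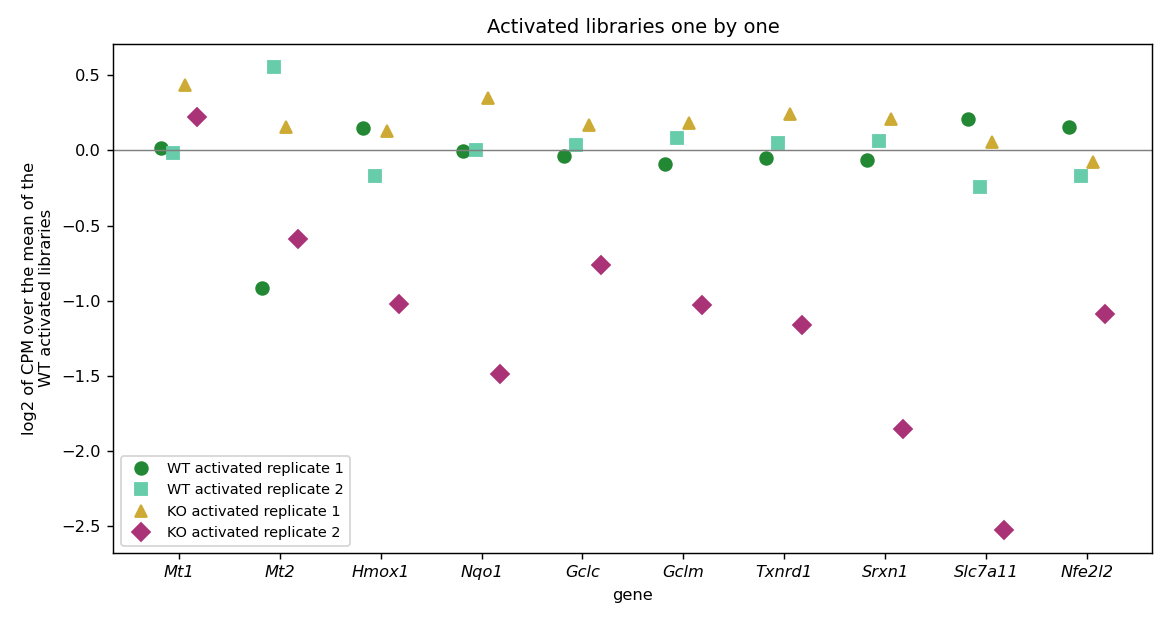
Log2 of each gene's CPM in each activated library over the mean of both WT activated libraries. Points are libraries. KO activated replicate 2 lies below the other 3 for every gene but *Mt1* and *Mt2*, most for *Slc7a11*.

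Quiescent libraries also differed among themselves. Several NRF2 target genes moved together there, as did many other abundant genes. *Hmox1*, *Txnrd1* and *Srxn1* were higher in replicates 3 and 4 than in replicates 1 and 2 in both genotypes, which held for 6.25% of all tested genes and 21.9% of the abundant ones. *Hmox1*, *Gclc*, *Gclm*, *Txnrd1*, *Srxn1* and *Nfe2l2* peaked in replicate 4 of both genotypes, as did 13.4% of all genes and 47.5% of the abundant genes. The labels do not say what a replicate number stands for. Replicate 4 had the lowest TMM factors of the quiescent libraries, 0.913 in WT and 0.894 in KO. It also had the fewest genes with at least 10 counts among them, 20191 and 19717. The part of these features in the pattern was not tested. Over the 8 quiescent libraries the deviations from group means had r of 0.99 for *Hmox1* and *Srxn1*, 0.97 for *Gclm* and *Txnrd1* and 0.95 for *Gclm* and *Nfe2l2*. *Nqo1* ran the other way, with r of -0.83 to *Srxn1* and -0.80 to *Hmox1*, and went with *Slc7a11* (r of 0.86). *Mt1* followed neither set closely, with r of -0.21 to *Srxn1*, 0.35 to *Nfe2l2*, 0.51 to *Gclc* and 0.24 to *Nqo1*. The highest quiescent library held over 3 times the lowest for *Hmox1* and *Srxn1* (3.99-fold), as for 59.0% of all tested genes and 7.06% of the abundant ones, and for *Mt1*, *Mt2* and *Nfe2l2* the span was 1.92-fold, 1.61-fold and 1.69-fold. These correlations describe points that share depth and library composition.

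A limit of mean log2 CPM over 5 by edgeR left 4533 other genes, a set slightly different from the abundant genes above. Among these, the genes with deviations from group means most like *Hmox1* over all 12 libraries were *Hnrnpk*, *Cct8*, *Fosl1*, *Fbxo30* and *Morf4l2*. Their r was 0.99, 0.99, 0.98, 0.98 and 0.98. *Srxn1* was the 88th, *Gclm* the 193rd and *Txnrd1* the 337th of that order. Those most like *Mt1* were *Tspan4*, *Nop58*, *Tgfbr1*, *Sned1* and *Peg3*, with r from 0.94 to 0.86, and *Mt2* was the 610th.

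Several regulators of NRF2 changed in activated cells of both genotypes. *Keap1*, the adaptor that sends NRF2 for degradation, rose from 17.0 to 24.6 CPM in the 8 quiescent libraries to 71.6, 84.5, 113.0 and 81.0 CPM in the activated libraries, with log2 fold changes of 1.84 (standard error 0.24, adjusted p = 8.06e-06, edgeR) in WT and 2.27 (standard error 0.24, adjusted p = 6.13e-07, edgeR) in KO. *Bach1*, the repressor, fell from 156 to 425 CPM to 99.0 and 49.9 CPM in WT and 40.6 and 43.3 CPM in KO, by 1.90 (standard error 0.40) and 2.72 (standard error 0.42) on the log2 scale. *Bach2* fell by 1.42 and 3.32. The small MAF partners did not move as one. *Mafk* fell by 2.22 in WT and 3.09 in KO and *Maff* by 2.34 and 2.62, whereas *Mafg* had log2 fold changes of -0.20 (adjusted p = 0.612, edgeR) and 0.12 (adjusted p = 0.770, edgeR). *Nfe2l3*, a relative of *Nfe2l2*, had 249 reads over the 4 quiescent WT libraries and 0 in the activated WT libraries, at least 9.08-fold lower when set against a floor of 3 counts over the group, while the activated KO libraries held 4 and 5 reads. Of 12 regulators and partners tested, 1 was called higher and 6 lower in WT, and 1 higher and 5 lower in KO.

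The 7 lists of other redox, detoxification and metal genes, those of regulators and metal handling included, held 99 genes. Of these 96 were tested, with no call between KO and WT in either state or in the difference between states. At an unadjusted p under 0.05 there were 0, 15 and 12 of them in edgeR's test, against 448, 2158 and 1699 of all 25771 genes. Between states 27 were called higher and 23 lower in WT, where 9.65% and 16.5% of all tested genes were, and 27 higher and 18 lower in KO, where 11.1% and 18.5% were. Of these, 25 were higher and 17 lower in both genotypes, and none went in opposite directions. The median log2 fold change over the 96 genes was 0.02 in WT and 0.05 in KO. The shares of all tested genes take in genes too low in counts to be called. Of the 18738 genes that averaged 10 counts or more, 2665 were called higher and 4174 lower in WT, and 3013 and 4650 in KO. Their median log2 fold changes were -0.46 and -0.49. The lists were not set against genes of like abundance here.

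In the glutathione list (23 genes), 9 were called higher and 5 lower in WT, and 8 higher and 4 lower in KO. Glutathione reductase *Gsr*, which restores reduced glutathione with NADPH, rose from 8.9 to 13.5 CPM in quiescent libraries to 178, 193.5, 215.5 and 104 CPM in activated libraries, a log2 fold change of 4.00 (standard error 0.28) in WT and 3.86 (standard error 0.27) in KO. The secreted glutathione peroxidase *Gpx3* fell by 4.78 and 4.14 on the log2 scale, from 1976 to 2837 CPM in quiescent libraries to 57.7 to 161 CPM in activated ones, and the glutathione transferase *Gstt1* fell by 4.86 and 3.83. In the thioredoxin and peroxiredoxin list (19 tested), 6 were higher and 2 lower in WT, and 5 higher and none lower in KO. *Glrx5*, a mitochondrial glutaredoxin of iron-sulfur assembly, rose by 2.78 and 2.65, *Prdx6* by 2.66 and 2.30 and *Prdx5* by 2.00 and 2.35. Among 5 dismutase and catalase genes, the extracellular *Sod3* fell by 2.48 and 2.68 and *Cat* rose by 1.19 and 1.11.

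In the list of NADPH supply and detoxifying reductases (17 genes), 6 were higher and 6 lower in WT, and 6 higher and 4 lower in KO. The carbonyl reductase *Cbr3* rose by 4.31 (standard error 0.36) and 3.60 (standard error 0.35), phosphogluconate dehydrogenase *Pgd* by 3.77 and 2.93 and malic enzyme *Me1* by 3.41 and 3.34, in WT and KO. *Ephx1*, an epoxide hydrolase, fell by 3.81 in WT and fell by 2.32 in KO, and *Aldh3a1*, an aldehyde dehydrogenase, fell by 3.13 and 3.57. In the heme and iron list (10 genes), 4 were higher and 1 lower in WT, and 6 higher and 1 lower in KO. The heme transporter *Slc48a1* rose by 4.25 and 4.18, from 17.4 to 33.9 CPM to 351 to 581 CPM, the transferrin receptor *Tfrc* by 1.73 and 1.78, and *Alas1*, the first enzyme of heme synthesis, fell by 2.02 and 1.61. Of the 96 genes, 32 were lowest of the activated libraries in KO activated replicate 2, and 9 held less than 0.5 times the next lowest there, among them *Prdx6*, *Pgd* and *Cbr3*. The shares of all tested genes were 14.5% and 2.69%, and those of abundant genes 30.6% and 0.949%, although the lists also hold less abundant genes.

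**Figure D5:**
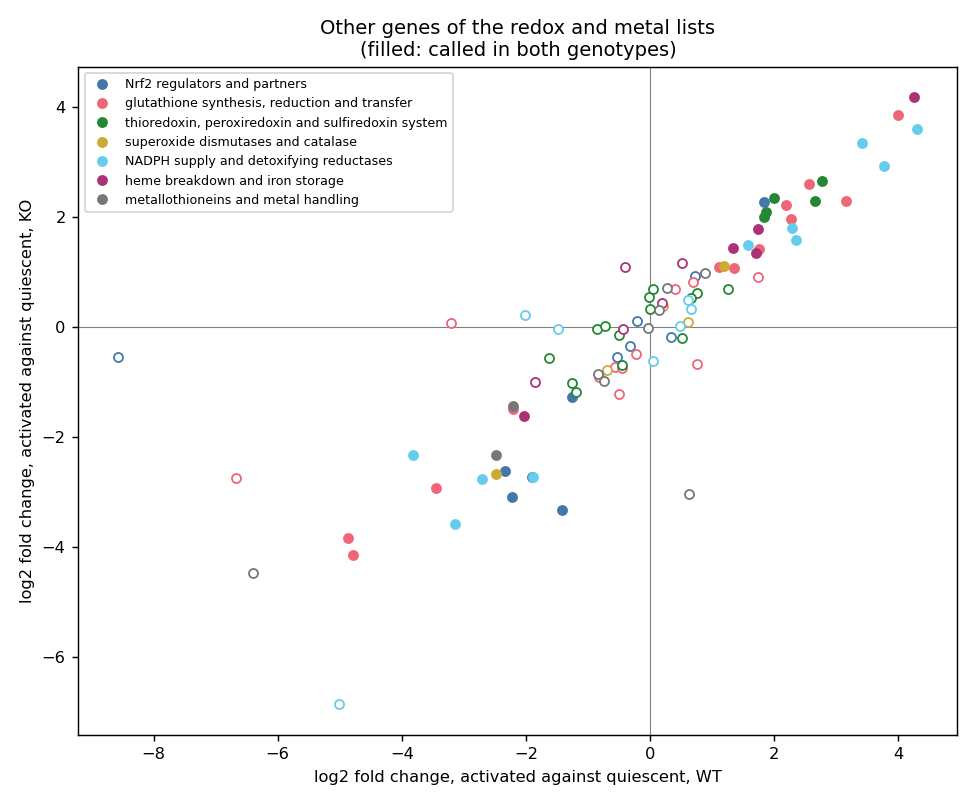
Log2 fold change of activated against quiescent in WT (horizontal) and KO (vertical) for the 96 tested genes of the 7 lists, coloured by list and filled where called in both genotypes. The 42 filled points lie in the lower left or upper right part, and 4 genes had 0 counts in both activated libraries of a genotype, so that their position depends on the prior count.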

How the data were processed

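RNA-seq was done on Pax7-ZsGreen+ cells from *Cxcr4* WT and KO mice, 4 quiescent and 2 activated libraries per genotype, grouped by the sample labels. Per the labels and the study's methods, the authors trimmed reads with Trim Galore 0.6.0, mapped them with STAR 2.7.2a and deposited counts per gene on GRCm38.p6, counted with Rsubread on GENCODE genes. How multi-mapping reads and strand were treated is not given in the sources used here. The FPKM values were deposited by the authors as 1 column per group, and how they were scaled and pooled is not given either. Their processing notes also name DESeq2 1.34.0.

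Here the 25771 genes kept by filterByExpr were fitted in 1 model of the 4 groups with the quasi-likelihood method of edgeR 4.0.16 (R 4.3.3) and TMM scaling, and p-values were adjusted by Benjamini-Hochberg over all of them. Standard errors are the log2 fold change over the square root of F, and intervals are 95%. Counts limit precision most in the activated libraries. Alternatives were DESeq2 1.42.0, its size factors, other filters on low counts, adjusted p alone, a robust fit, the compared groups alone, a replicate block, leaving out the gene CT010467.1, and leaving out each library. Levels per length used merged exon lengths of GENCODE release 21, and shared sequence was searched with blastn 2.17.0 (at least 90% identity over 100 bases).

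All 10 genes are given. From the 7 other lists the rule named at most 3 called genes per list and comparison with the largest log2 fold change, plus *Keap1*, *Bach1*, *Mafg* and *Mtf1*, and for *Mt1* and *Hmox1* the 5 genes with the most similar deviations. *Calcr*, *Cd52*, *Adgre1* and *Tagln* are named because they had 0 counts, and *Ly6a*, *Col3a1*, *Dpt*, *Gsn* and *Pdgfra* because they were the fibroadipogenic markers called. *Dcn* and *Lum* are named because their means rose against the sum of that list, and *Des* because it made up most of its list's sum. All of these were named after their values were seen. The genes, lists and rules were chosen with earlier results of these data known.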

Additional observations from a re-analysis of the deposited data

Results flagged for a closer look

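In the KO quiescent libraries, 1 library lay far above the other 3 for 2 of the 10 genes. *Gclm* was at 232.4 CPM in KO quiescent replicate 4, against 128 to 139 CPM in the others, a gap of 0.895 of the group's range. *Txnrd1* was at 2060.1 CPM in the same library, against 1059.9 to 1228 CPM, a gap of 0.832 of the range. Both gaps passed the 95% limit of Dixon's test for 4 libraries, which was applied to 20 groups of values, and chance alone passes it in about 1 group in 20. The groups share libraries, and *Gclm* and *Txnrd1* had r of 0.97 over the quiescent libraries, so that these gaps are not separate results. WT quiescent replicate 4 also had the highest value of its group for both genes, at 269 and 2017 CPM.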

How the results depend on the processing

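The numbers of the 10 genes called (0 and 0 between genotypes in quiescent and activated cells, 0 for the difference between states, 5 and 6 between states in WT and KO) were the same under all 9 alternative settings, except that on adjusted p alone *Nfe2l2* made it 6 in WT, and the compared groups alone could not be used for the difference between states. Leaving out 1 library, which where it leaves 1 library in a group assumes that this library varies like the others, gave 0 to 1 calls between genotypes in activated cells, the 1 being *Slc7a11* without KO activated replicate 1. Between states it gave 5 to 6 calls in WT (with *Nfe2l2* without WT quiescent replicate 1) and 6 in KO, where *Gclm* was lost and *Srxn1* gained without KO activated replicate 1.

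Log2 fold changes near 0 changed sign, none of them called. Activated against quiescent in WT, *Gclc* had 0.053 with DESeq2 size factors and with DESeq2, 0.064 with a mean count of at least 10 and 0.041 with the compared groups alone, and *Txnrd1* had 0.0090 and *Hmox1* in KO 0.0089 with a mean count of at least 10. *Gclc* between genotypes in quiescent cells had -0.0059 without CT010467.1.

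With one library left out, the values that changed sign ranged as follows. Between genotypes in quiescent cells they ran from -0.74 to 0.29 for *Hmox1*, -0.25 to 0.20 for *Gclc*, -0.33 to 0.23 for *Gclm*, -0.23 to 0.27 for *Txnrd1* and -0.40 to 0.31 for *Srxn1*. Between genotypes in activated cells they ran from -0.82 to 0.67 for *Mt2*, -1.04 to 0.075 for *Hmox1*, -1.505 to 0.29 for *Nqo1*, -0.78 to 0.11 for *Gclc*, -1.04 to 0.13 for *Gclm*, -1.18 to 0.18 for *Txnrd1* and -1.87 to 0.16 for *Srxn1*. For the difference between states they ran from -0.035 to 0.28 for *Mt1*, -1.07 to 0.42 for *Mt2*, -0.87 to 0.41 for *Hmox1*, -0.79 to 0.11 for *Gclc*, -0.96 to 0.22 for *Gclm*, -1.21 to 0.17 for *Txnrd1*, -1.90 to 0.14 for *Srxn1* and -2.36 to 0.18 for *Slc7a11*. Between states in WT they ran from -0.15 to 0.55 for *Hmox1*, -0.16 to 0.18 for *Gclc* and -0.21 to 0.18 for *Txnrd1*, and in KO from -0.78 to 0.49, -0.80 to 0.16 and -1.27 to 0.15.

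The replicate numbers were not taken to pair WT with KO libraries. Same-numbered libraries had r of deviations over 12862 genes of 0.24, 0.16, -0.27 and 0.59 for quiescent replicates 1 to 4 and -0.07 for the activated ones, and not every library correlated best with its own number. Over the 10 genes r was 0.76, 0.92, 0.51 and 0.95 and 0.36, and between replicates of other numbers it reached 0.80 (WT 1 and KO 2) and 0.95 (WT 3 and KO 4). With the replicate block no call on the 10 genes changed. Between states the block matched quiescent with activated libraries by number, which the labels do not give as a pairing. Replicates 3 and 4 are quiescent only, so that its state values rested mainly on replicates 1 and 2. For *Hmox1* these were the lowest quiescent libraries (669 and 883 CPM in WT, 547 and 890 CPM in KO). In WT the block gave 0.99 for *Hmox1* (adjusted p = 0.0169, edgeR), short of the fold limit. It also gave 0.42 for *Gclc*, 0.35 for *Txnrd1* and 0.29 for *Srxn1* there. In KO it gave 0.82 (adjusted p = 0.0433, edgeR) for *Hmox1* and 0.10 for *Gclc*. Between genotypes in quiescent cells it gave -0.034 for *Srxn1*.

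Over all genes, the 4 calls between genotypes in quiescent cells became 47 (83% of them higher in KO, 50% before) with no filter and 7 without KO quiescent replicate 3. The 13 calls in activated cells (61.5% higher) became 8 with DESeq2 size factors (50%), 332 with no filter (38.3%), 2 with a mean count of at least 10 and 3 with the compared groups alone (100% each), 145 with DESeq2 (40%) and 20 with the robust fit, and with a library left out ran from 0 without WT activated replicate 1 to 211 without WT activated replicate 2, with 59 without KO activated replicate 1, 2 without KO activated replicate 2 and 2 to 7 without 1 of 7 quiescent libraries (all but KO replicate 4). The 0 for the difference between states became 170 with no filter, 48 with DESeq2, 8 with the robust fit, 3 with the block, 1 without CT010467.1, 29 without KO activated replicate 1, 82 without WT activated replicate 2 and up to 3 without a quiescent library. Between states the 6750 calls in WT became 4481 without WT activated replicate 2, and the 7633 in KO became 5020 without KO activated replicate 1. The cause was not tested.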
